A study of Mus musculus with 22 samples.

Results

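The 10 transcripts described here encode AP-1 factors and close relatives of them, namely Fos, Fosb, Fosl1, Fosl2, Jun, Junb, Jund, Atf3, Batf and Maff. Every probe on the array whose RefSeq accession maps to one of these symbols was taken, without regard to its values. The symbols themselves were chosen with earlier results of these data known. The members are 10 of the 22384 genes tested. All 10 passed the filter on dim probes. Fosl2 was measured by 2 probes and each of the other members by 1.

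AP-1 is a family of dimeric transcription factors built from basic leucine zipper proteins. Fos proteins pair only with partners such as the Jun proteins, whereas Jun proteins also pair among themselves, and the dimers bind the palindromic elements known as TRE and CRE. In macrophages stimulated with bacterial products, mitogen-activated protein kinases raise both the transcription and the activity of these factors, and AP-1 acts together with NF-kB at many cytokine genes. Several members are immediate-early genes, whose transcripts rise and decline soon after stimulation.

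The arrays profiled macrophages derived from bone marrow (BMDM), which were grown from the femoral marrow of C57BL/6 mice with M-CSF, the growth factor that drives macrophage differentiation. The mice were wild-type (wt), lacked the kinase MK2 (MK2-/-) or lacked both MK2 and its relative MK3 (MK2/3-/-), and the labels give all of them as male and 10 to 14 weeks old. MK2 and MK3 are kinases activated by p38, so the comparisons ask how loss of MK2 alone, or of both, changes these transcripts at rest and under LPS. BMDM were kept for 360 min in medium (4 wt, 4 MK2-/- and 3 MK2/3-/- arrays) or in medium with 100 ng per ml of lipopolysaccharide (LPS; 3 wt, 4 MK2-/- and 4 MK2/3-/- arrays). The labels give the genotypes by name only. The methods describe the experiments as independent, and the ages in the labels differ among the MK2-/- arrays of each treatment, but some arrays of the other groups share an age and no source used here states that each array had its own mouse. The p-values therefore measure the spread between these arrays.

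Levels are log2 Agilent 1-colour signals after quantile normalisation, and a difference of 1 on this scale is a 2-fold change. Levels of different probes are not comparable with each other, and only differences of one probe between groups are given. A difference was called at a limma adjusted p below 0.05 over all 22384 genes. All arrays of a genotype lay on 1 slide, so that a direct difference between genotypes cannot be told apart from one between slides, while an additive slide effect cancels in LPS responses. The targeted transcripts followed the labels, with Mapkapk2 lower in both knockouts and Mapkapk3 lower in MK2/3-/- BMDM (11.16 ± 0.23 (SD, n = 3) in medium, against 13.13 ± 0.26 (SD, n = 4) in wt). Of 10 macrophage markers 9 were tested and all 9 were well above background on all 22 arrays. Fibroblast and stromal markers (Col1a1, Col1a2, Col3a1, Pdgfrb, Dcn) varied most, with a log2 summed signal between 9.47 and 16.67 over the arrays. In a bulk culture, fewer cells of a type and less RNA per cell cannot be told apart.

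A total of 3 arrays stood apart. On replicate 4 of wt in medium, the median log2 signal of 24 textbook AP-1 target genes was 12.08, compared with 10.54 to 10.93 on the other wt medium arrays and 15.17 to 15.24 on the wt LPS arrays. Both replicates 3 of MK2-/- BMDM carried almost no signal of the Y-linked gene Ddx3y (1.99 under LPS and 2.01 in medium, against 10.09 to 11.26 on the other arrays), although the labels say male. Calls of the members that were lost when these 3 arrays were left out are given with the value without them.

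Promoter windows of 300 bases, from 250 bases before to 50 bases after the annotated start, were taken from RefSeq (GRCm38.p6) for 9 members in 11 windows. The windows of Atf3, Jund, Junb, Batf and the first Maff start held none of the motifs searched and are not shown, nor is that of Fosb. Those shown all hold a match. They belong to members whose transcripts fell under LPS in all 3 genotypes (Fos, Jun), to Maff, which rose in all of them, as Junb and Batf did, and to Fosl2, whose level under LPS differed between genotypes. They are read 5′ to 3′ along the gene's strand, and capitals mark motif matches on either strand.
Fos, chr12:85473640-85473939, plus strand: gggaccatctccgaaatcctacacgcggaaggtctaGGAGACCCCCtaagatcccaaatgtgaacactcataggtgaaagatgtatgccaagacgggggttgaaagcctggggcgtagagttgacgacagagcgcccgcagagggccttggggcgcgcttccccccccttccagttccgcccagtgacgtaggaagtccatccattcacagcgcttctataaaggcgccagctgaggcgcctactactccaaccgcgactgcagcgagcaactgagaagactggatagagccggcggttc
Jun, chr4:95052173-95052472, minus strand: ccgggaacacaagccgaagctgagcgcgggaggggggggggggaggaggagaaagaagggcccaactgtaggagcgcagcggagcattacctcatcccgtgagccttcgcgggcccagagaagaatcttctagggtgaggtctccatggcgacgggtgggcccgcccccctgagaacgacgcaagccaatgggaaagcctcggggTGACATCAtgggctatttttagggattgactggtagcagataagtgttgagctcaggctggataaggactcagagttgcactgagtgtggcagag
Fosl2, chr5:32136222-32136521, plus strand: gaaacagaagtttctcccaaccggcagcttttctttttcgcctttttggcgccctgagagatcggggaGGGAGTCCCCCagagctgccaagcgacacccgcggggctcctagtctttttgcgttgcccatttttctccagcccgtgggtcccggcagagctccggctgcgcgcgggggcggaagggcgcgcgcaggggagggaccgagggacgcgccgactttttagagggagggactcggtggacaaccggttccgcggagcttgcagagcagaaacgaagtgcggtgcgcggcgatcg
Maff, the second annotated start, chr15:79347270-79347569, plus strand: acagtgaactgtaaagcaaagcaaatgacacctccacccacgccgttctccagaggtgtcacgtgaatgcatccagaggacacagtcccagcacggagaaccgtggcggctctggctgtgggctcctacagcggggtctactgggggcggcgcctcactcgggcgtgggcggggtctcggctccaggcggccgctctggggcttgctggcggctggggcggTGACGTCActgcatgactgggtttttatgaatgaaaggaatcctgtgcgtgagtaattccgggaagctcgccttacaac
Maff, the third annotated start, chr15:79348152-79348451, plus strand: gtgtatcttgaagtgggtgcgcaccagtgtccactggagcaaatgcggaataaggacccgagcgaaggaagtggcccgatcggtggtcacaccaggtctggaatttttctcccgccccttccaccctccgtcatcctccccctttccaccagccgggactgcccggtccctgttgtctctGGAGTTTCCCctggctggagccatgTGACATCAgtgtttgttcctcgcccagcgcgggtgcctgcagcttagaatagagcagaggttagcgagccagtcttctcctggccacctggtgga
The motifs searched were the TRE (TGACTCA), its 8-base variant (TGACATCA), the CRE (TGACGTCA), and the CArG box and the NF-kB site by their usual degenerate forms. The windows of Jun and of the last Maff start held the TRE variant at positions -45 to -38 from the start, a match found in 3.62% of all 32851 RefSeq windows. The second Maff window held a CRE at -29 to -22, as 1.79% of all windows do. An NF-kB match lay in the windows of Fos, Fosb, Fosl2 and the last Maff start, against 4.51% of all windows, and in Fosl2 it consists of 2 overlapping matches. No member window contained the letters of the TRE (5.2% of all windows) or of the CArG box (1.63%). A match describes these letters and does not show binding.

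LPS against medium was compared first, within each genotype, to see how each member responded at 360 min. Fosl2, Junb, Batf and Maff rose in all 3 genotypes, whereas Fos and Jun fell in all of them. Batf had the largest change of the 10 members, 49.5-fold in wt BMDM. Fosb passed the threshold in none, and Atf3 passed it in none except, in MK2/3-/- BMDM, under some of the alternatives given with its values. In wt BMDM 4 members were higher and 3 lower under LPS, against 18.6% and 23.5% of all genes. In MK2-/- BMDM 5 were higher and 2 lower (17.5% and 27.1% of all genes), and in MK2/3-/- BMDM 4 were higher and 2 lower (20.2% and 27.9%). The median log2 LPS response over the 10 members was 0.63 in wt, 1.25 in MK2-/- and 0.78 in MK2/3-/- BMDM, against -0.04, -0.01 and 0.01 over all genes. Leaving out the 3 doubted arrays gave the same numbers in each direction. With each array scaled to its 75th percentile, which shifts the median LPS response of all genes to 0.28, 0.26 and 0.29, the wt split became 4 higher and 1 lower, since Jun (-1.08, adjusted p 0.0522) and Jund were no longer called. The split became 6 higher and 2 lower in MK2-/- BMDM, where Jund was added, and 6 higher and 2 lower in MK2/3-/- BMDM, where Jund and Atf3 were added.

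**Figure D1:**
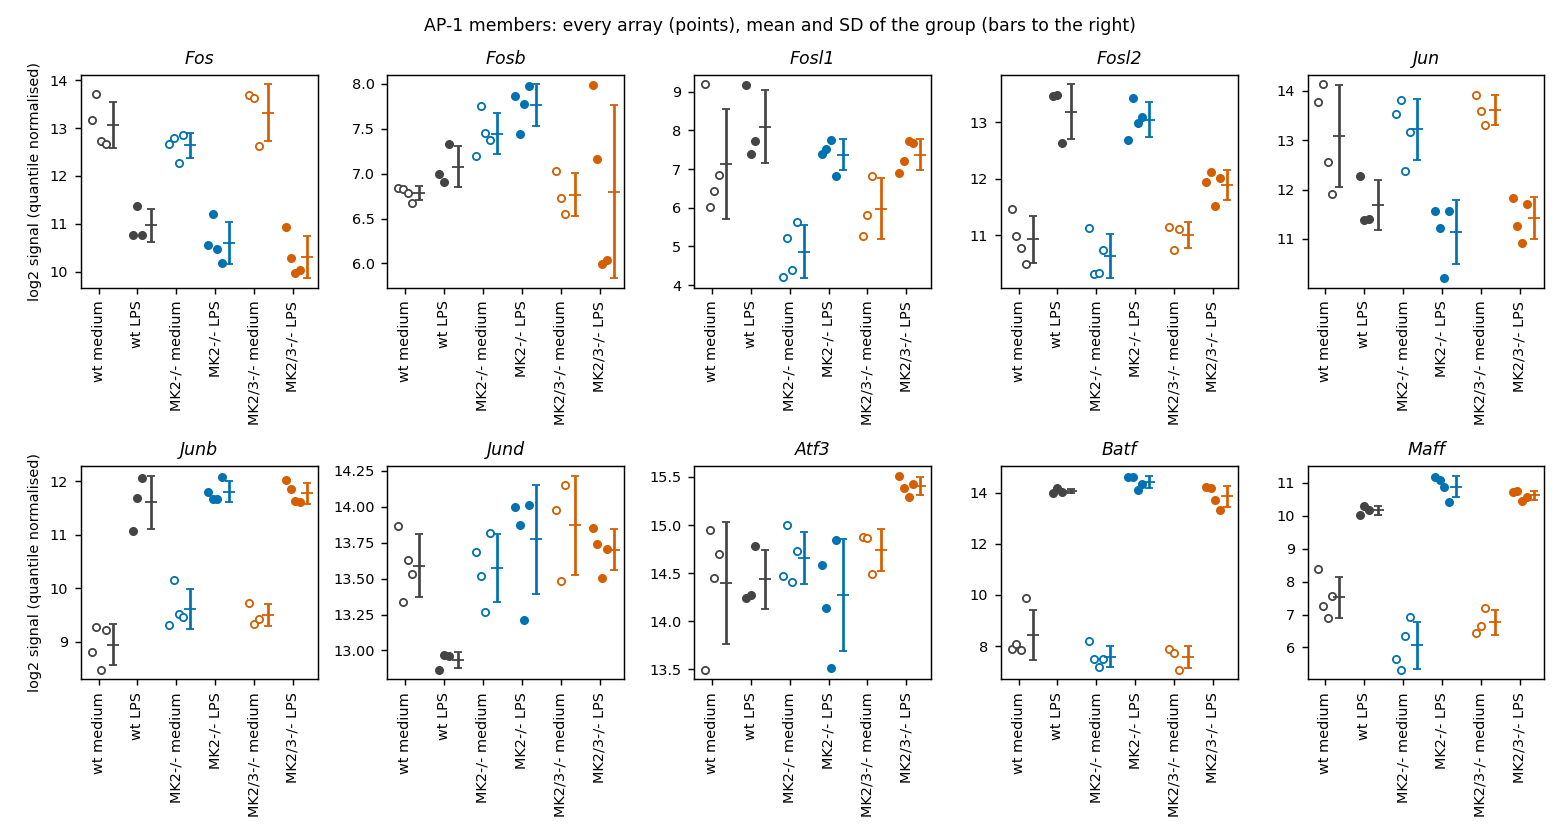
Log2 quantile-normalised signal of the 10 members (vertical axis, a separate scale for each gene) on every array, by group on the horizontal axis, with open points for medium and filled points for LPS. Bars to the right of the points show the group mean and SD (n = 3 or 4). The LPS points of Fosl2, Junb, Batf and Maff lie above all medium points of the same genotype, and those of Fos lie below them.

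Among the Fos proteins, Fos (NM_010234), the founding immediate-early member with a strong transactivation domain, was lower under LPS. Fos in wt BMDM had log2 signals of 13.17, 13.71, 12.73 and 12.68 in medium and 10.77, 11.37 and 10.76 under LPS. Fos in MK2-/- BMDM gave 12.66, 12.80, 12.27 and 12.85 in medium and 10.56, 11.21, 10.48 and 10.17 under LPS. Fos in MK2/3-/- BMDM gave 13.70, 13.63 and 12.64 in medium and 10.92, 10.28, 9.97 and 10.02 under LPS. Every LPS array lay below every medium array, also across genotypes. The fall was 4.31-fold in wt (log2 -2.11 ± 0.32 (SE), limma adjusted p 3.36e-05), 4.11-fold in MK2-/- (-2.04 ± 0.30, 1.36e-05) and 8.14-fold in MK2/3-/- BMDM (-3.03 ± 0.32, 2.67e-07). Under LPS its mean was 10.96 ± 0.35 (SD, n = 3) in wt and 10.30 ± 0.44 (SD, n = 4) in MK2/3-/- BMDM, a log2 difference of -0.67 (95% interval -1.35 to 0.01, adjusted p 0.143) with overlapping arrays. The LPS response of MK2/3-/- BMDM differed from that of wt by -0.92 (-1.88 to 0.04, adjusted p 0.471) and from that of MK2-/- by -0.99 (-1.91 to -0.06, adjusted p 0.543), neither of which passed the threshold.

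Fosb (NM_008036), an immediate-early relative of Fos, had no called LPS response. Fosb in wt BMDM had log2 signals of 6.84, 6.83, 6.78 and 6.67 in medium and 6.99, 6.90 and 7.34 under LPS. Fosb in MK2-/- BMDM gave 7.20, 7.75, 7.45 and 7.38 in medium and 7.86, 7.44, 7.77 and 7.98 under LPS. Fosb in MK2/3-/- BMDM gave 7.02, 6.72 and 6.55 in medium and 7.99, 7.17, 5.99 and 6.04 under LPS. The wt LPS arrays lay above the wt medium arrays by a mean log2 difference of 0.30 (-0.42 to 1.01, adjusted p 0.528). All MK2-/- arrays lay above all wt arrays of the same treatment, by 0.66 in medium (adjusted p 0.19) and 0.69 under LPS (adjusted p 0.184). With scaling to the 75th percentile these differences were 1.12 and 0.98 and passed the threshold (adjusted p 0.0156 and 0.0473). The MK2/3-/- LPS arrays spread from 5.99 to 7.99 (6.80 ± 0.96, SD, n = 4), and their difference from MK2-/- of -0.97 was called at an adjusted p of 0.0483. This call was lost when any of 19 of the 22 arrays was left out and without the 3 doubted arrays (-0.96, adjusted p 0.106).

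Fosl1 (NM_010235) and Fosl2 (NM_008037) encode FRA1 and FRA2, Fos relatives without a strong transactivation domain. Fosl1 in wt BMDM had log2 signals of 9.19, 6.03, 6.43 and 6.84 in medium and 9.16, 7.39 and 7.72 under LPS. Fosl1 in MK2-/- BMDM gave 4.20, 5.21, 4.38 and 5.64 in medium and 7.39, 7.52, 7.76 and 6.82 under LPS. Fosl1 in MK2/3-/- BMDM gave 5.27, 5.81 and 6.83 in medium and 6.91, 7.20, 7.72 and 7.67 under LPS. Fosl1 rose 5.70-fold under LPS in MK2-/- BMDM (log2 2.51 ± 0.56, adjusted p 0.00105), where all LPS arrays lay above all medium arrays. Its signal on MK2-/- medium replicate 1 (4.20) was not well above background. Over the 36 alternatives this rise kept its call but ranged from 1.25 to 2.77 on the log2 scale. In wt BMDM the groups overlapped, with a difference of 0.97 (-0.30 to 2.24, adjusted p 0.219) that became 1.66 (adjusted p 0.0105) without replicate 1 in medium. In MK2/3-/- BMDM the LPS arrays lay above the medium arrays by 1.40 (0.13 to 2.68, adjusted p 0.0643), which passed the threshold without wt medium replicate 1 (1.40, adjusted p 0.0146) or without MK2/3-/- medium replicate 3 (1.83, adjusted p 0.0353). It also did so with only the compared groups in the fit (1.40, adjusted p 0.026) and with the array letter as a random block (1.39, adjusted p 0.043). In medium Fosl1 was 4.80-fold lower in MK2-/- than in wt BMDM (log2 -2.26 ± 0.56, adjusted p 0.0207). Without wt medium replicate 1 this was -1.57 (adjusted p 0.0583), without MK2-/- medium replicate 1 -2.04 (adjusted p 0.0569), without MK2-/- medium replicate 3 -2.11 (adjusted p 0.0512), and without the 3 doubted arrays -2.20 (adjusted p 0.0859). With normexp background correction of the raw signals the difference was -1.15 (adjusted p 0.0761), and with only the compared groups in the fit the adjusted p was 0.0796.

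The level of Fosl1 moved with that of the 5 fibroblast and stromal markers in several groups. Their log2 summed signal was 16.67, 11.60, 13.64 and 14.78 in wt medium replicates 1 to 4, the order of which matched that of Fosl1 on these arrays. In wt LPS replicates 1 to 3 it was 15.90, 13.55 and 14.37, again in the order of Fosl1. It ranged from 10.57 to 14.70 in MK2-/- medium, from 11.60 to 14.23 in MK2-/- LPS, from 9.47 to 15.54 in MK2/3-/- medium and from 10.76 to 14.89 in MK2/3-/- LPS. In MK2-/- LPS the array with the highest stromal level had the lowest Fosl1. Of the 5 markers 4 were well above background on all 22 arrays and Dcn on 19, and their part in the Fosl1 differences was not tested.

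**Figure D2:**
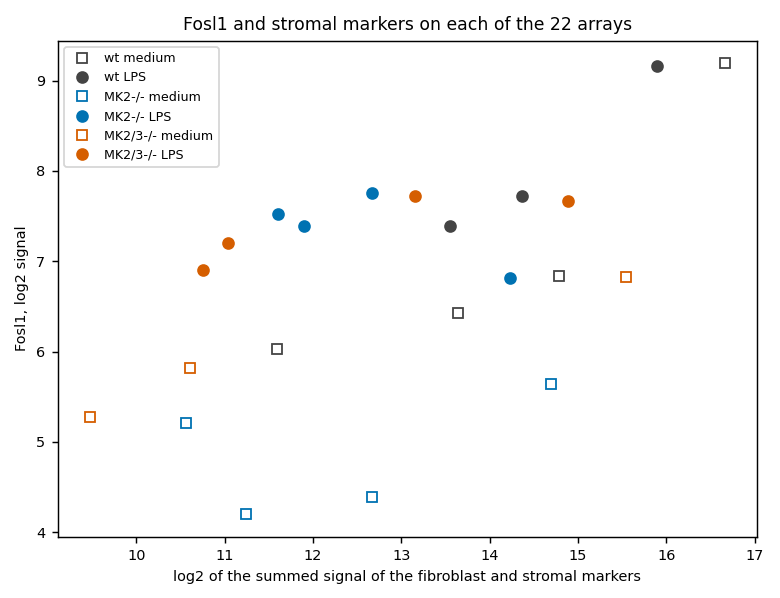
Fosl1 log2 signal (vertical axis) against the log2 of the summed signal of 5 fibroblast and stromal markers (horizontal axis) on each of the 22 arrays, with squares for medium, circles for LPS and 1 colour for each genotype. Both wt arrays numbered replicate 1, at 16.67 and 15.90 on the horizontal axis, have the highest Fosl1 signals, 9.19 and 9.16.

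Fosl2 rose in all genotypes and was the member whose LPS level differed most between them. Fosl2 in wt BMDM had log2 signals of 11.47, 10.99, 10.78 and 10.49 in medium and 13.46, 13.48 and 12.63 under LPS. Fosl2 in MK2-/- BMDM gave 11.13, 10.31, 10.33 and 10.74 in medium and 12.68, 13.43, 12.99 and 13.10 under LPS. Fosl2 in MK2/3-/- BMDM gave 11.15, 10.74 and 11.12 in medium and 11.94, 12.13, 11.51 and 12.01 under LPS. All LPS arrays lay above all medium arrays, and all MK2/3-/- LPS arrays lay below all LPS arrays of wt and MK2-/- BMDM. The rise was 4.79-fold in wt (log2 2.26 ± 0.27, adjusted p 2.19e-06), 5.37-fold in MK2-/- (2.42 ± 0.25, 1.86e-07) and 1.86-fold in MK2/3-/- BMDM (0.89 ± 0.27, 0.0109; 0.76, adjusted p 0.059, without MK2/3-/- medium replicate 2). Under LPS, Fosl2 was 2.46-fold lower in MK2/3-/- than in wt (log2 -1.30, -1.87 to -0.72, adjusted p 0.00263) and 2.23-fold lower than in MK2-/- BMDM (-1.15, -1.69 to -0.62, 0.00522). Between MK2-/- and wt the difference was -0.14 (-0.71 to 0.43, adjusted p 0.768). In medium no genotype difference of Fosl2 was called, the largest being 0.38 (-0.20 to 0.95) for MK2/3-/- against MK2-/-. The LPS response itself was smaller in MK2/3-/- by 1.37 on the log2 scale than in wt (95% interval of the difference -2.18 to -0.56, unadjusted p 0.00226) and by 1.53 than in MK2-/- (-2.31 to -0.75, unadjusted p 0.000615), but neither passed adjustment over all genes (0.102 and 0.186).

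The dimmer Fosl2 probe gave a different picture of the genotypes. The dimmer probe in wt BMDM had log2 signals of 5.25, 5.99, 4.87 and 5.71 in medium and 7.44, 7.79 and 7.49 under LPS. The dimmer probe in MK2-/- BMDM gave 5.80, 5.37, 5.97 and 5.60 in medium and 6.99, 7.49, 6.89 and 7.09 under LPS. The dimmer probe in MK2/3-/- BMDM gave 5.36, 5.70 and 5.95 in medium and 6.92, 7.23, 7.12 and 6.75 under LPS. LPS raised its signal in all 3 genotypes, by 2.12, 1.43 and 1.33 on the log2 scale (highest adjusted p 0.000138). Its MK2/3-/- LPS arrays also lay below all wt LPS arrays, but by -0.57 (-1.08 to -0.06, adjusted p 0.0974), and they overlapped the MK2-/- arrays (-0.11, -0.58 to 0.36, adjusted p 0.809). The 2 probes therefore did not give the same call for Fosl2 between genotypes. This probe was well above background on 21 of the 22 arrays and the brighter one on all 22.

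**Figure D3:**
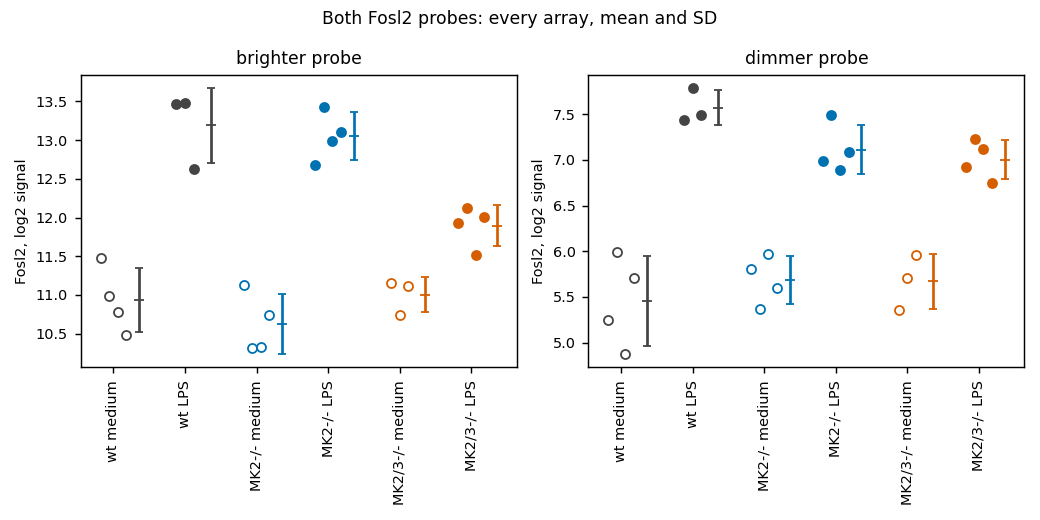
Log2 signal (vertical axes, on different scales) of the brighter and the dimmer Fosl2 probe on every array, by group on the horizontal axis, with group means and SD (n = 3 or 4) beside the points. Under LPS the brighter probe is lower in MK2/3-/- BMDM (11.90) than in wt (13.19) and MK2-/- (13.05), whereas on the dimmer probe the MK2/3-/- LPS arrays (6.75 to 7.23) overlap those of MK2-/- (6.89 to 7.49).

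Among the Jun proteins, Jun (NM_010591), the main substrate of the JNK kinases within AP-1, fell under LPS. Jun in wt BMDM had log2 signals of 13.77, 14.13, 12.56 and 11.92 in medium and 12.28, 11.38 and 11.41 under LPS. Jun in MK2-/- BMDM gave 13.52, 13.82, 12.38 and 13.17 in medium and 11.56, 11.21, 10.20 and 11.57 under LPS. Jun in MK2/3-/- BMDM gave 13.92, 13.59 and 13.32 in medium and 11.83, 11.26, 10.91 and 11.71 under LPS. In both knockouts all LPS arrays lay below all medium arrays, and in wt BMDM the groups overlapped at replicate 4 in medium, one of the doubted arrays. The fall was 2.65-fold in wt (log2 -1.41 ± 0.48, adjusted p 0.0228), 4.25-fold in MK2-/- (-2.09 ± 0.44, 0.000614) and 4.54-fold in MK2/3-/- BMDM (-2.18 ± 0.48, 0.000789). The wt call was lost without LPS replicate 2 (-1.25, adjusted p 0.0887), LPS replicate 3 (-1.27, 0.0836), medium replicate 1 (-1.18, 0.0712) or medium replicate 2 (-1.06, 0.0819), and was -1.80 without the 3 doubted arrays. The LPS response differed between genotypes by -0.68 for MK2-/- against wt (-2.04 to 0.68) and -0.78 for MK2/3-/- against wt (-2.18 to 0.63). Neither passed the threshold (adjusted p 0.845 and 0.77), and without the 3 doubted arrays they were -0.26 and -0.38.

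Junb (NM_008416), a weaker transactivator than Jun that is also induced by cytokines, rose in all genotypes. Junb in wt BMDM had log2 signals of 8.80, 9.28, 8.49 and 9.23 in medium and 11.07, 11.68 and 12.06 under LPS. Junb in MK2-/- BMDM gave 9.31, 10.16, 9.51 and 9.47 in medium and 11.81, 11.67, 11.67 and 12.07 under LPS. Junb in MK2/3-/- BMDM gave 9.73, 9.33 and 9.43 in medium and 12.02, 11.85, 11.63 and 11.61 under LPS. Every LPS array lay above every medium array. The rise was 6.29-fold in wt (log2 2.65 ± 0.25, adjusted p 1.05e-07), 4.57-fold in MK2-/- (2.19 ± 0.23, 2.24e-07) and 4.86-fold in MK2/3-/- BMDM (2.28 ± 0.25, 3.71e-07). In medium all knockout arrays lay above all wt arrays, by 0.66 in MK2-/- (0.18 to 1.15, adjusted p 0.0809) and 0.55 in MK2/3-/- BMDM (0.02 to 1.07, adjusted p 0.276). Under LPS the genotypes overlapped, with differences of 0.20 and 0.17 from wt (intervals -0.32 to 0.73 and -0.35 to 0.70).

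Jund (NM_010592), the Jun protein found in most resting cells, differed between genotypes under LPS. Jund in wt BMDM had log2 signals of 13.87, 13.34, 13.63 and 13.53 in medium and 12.87, 12.97 and 12.96 under LPS. Jund in MK2-/- BMDM gave 13.69, 13.52, 13.27 and 13.82 in medium and 14.00, 13.87, 13.21 and 14.01 under LPS. Jund in MK2/3-/- BMDM gave 13.98, 13.48 and 14.15 in medium and 13.85, 13.74, 13.51 and 13.71 under LPS. The 3 wt LPS arrays, at 12.93 ± 0.06 (SD), lay below all other arrays of the study. Jund was thus 1.58-fold lower under LPS in wt (log2 -0.66 ± 0.21, adjusted p 0.0164), while the differences in MK2-/- (0.20, -0.21 to 0.61) and MK2/3-/- BMDM (-0.17, -0.61 to 0.27) did not pass the threshold. Under LPS it exceeded its wt level 1.79-fold in MK2-/- (0.84 ± 0.21, adjusted p 0.0173) and 1.71-fold in MK2/3-/- BMDM (0.77 ± 0.21, 0.0129). The LPS responses of MK2-/- and wt differed by 0.86 (0.26 to 1.46, unadjusted p 0.00734, adjusted p 0.457). The LPS response depended on the scaling and turned its sign in MK2/3-/- BMDM, since after scaling to the 75th percentile it was -0.09 in wt (adjusted p 0.779), 0.87 in MK2-/- (0.00314) and 0.59 in MK2/3-/- BMDM (0.0462), or -0.38, 0.60 and 0.30 relative to the shift of all genes. The wt response also lost its call without wt medium replicate 1 (-0.57, adjusted p 0.0524), and the difference between MK2-/- and wt did so without wt LPS replicate 1 (0.81, adjusted p 0.0552).

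Of the members outside the Fos and Jun families, Atf3 (NM_007498), a stress-induced ATF/CREB factor known to restrain cytokine transcription after Toll-like receptor stimulation, had group means of 14.27 to 14.74 in 5 groups and 15.41 in LPS-treated MK2/3-/- BMDM. Atf3 in wt BMDM had log2 signals of 13.50, 14.95, 14.45 and 14.70 in medium and 14.25, 14.27 and 14.79 under LPS. Atf3 in MK2-/- BMDM gave 14.47, 15.00, 14.41 and 14.73 in medium and 14.59, 14.14, 13.52 and 14.85 under LPS. Atf3 in MK2/3-/- BMDM gave 14.87, 14.87 and 14.49 in medium and 15.51, 15.38, 15.30 and 15.43 under LPS. The 4 MK2/3-/- LPS arrays, at 15.41 ± 0.09 (SD), lay above all other arrays. Under LPS Atf3 was 1.96-fold higher in MK2/3-/- than in wt (log2 0.97 ± 0.31, adjusted p 0.0308) and 2.19-fold higher than in MK2-/- BMDM (1.13 ± 0.29, 0.014). The difference from wt was not called without wt LPS replicate 1 (0.88, adjusted p 0.108), wt LPS replicate 2 (0.89, 0.092), MK2/3-/- LPS replicate 1 (0.94, 0.065) or MK2/3-/- LPS replicate 2 (0.98, 0.0531), and that from MK2-/- not without the 3 doubted arrays (0.88, 0.0546). Within MK2/3-/- BMDM the LPS arrays lay above the medium arrays by 0.66 (0.01 to 1.32, adjusted p 0.0891), and this passed the threshold with scaling to the 75th percentile (1.59, adjusted p 0.000771, or 1.30 relative to the shift of all genes), with the deposited log2 table (0.80, 0.0394), with only the compared groups (0.66, 0.026), with the methods' t-test after adjustment (0.66, 0.0113) and without wt medium replicate 1 (0.66, 0.0426). In wt the LPS difference was 0.04 (-0.62 to 0.69) and in MK2-/- BMDM -0.38 (-0.99 to 0.22), which became 0.82 (adjusted p 0.0562) and 0.46 (adjusted p 0.252) with scaling to the 75th percentile. The responses of MK2/3-/- and MK2-/- differed by 1.04 (0.15 to 1.93, unadjusted p 0.024, adjusted p 0.496).

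Batf (NM_016767), which lacks a transactivation domain and binds DNA with Jun proteins and interferon regulatory factors, had the largest LPS response of the members. Batf in wt BMDM had log2 signals of 7.90, 8.09, 7.86 and 9.88 in medium and 13.98, 14.16 and 14.04 under LPS. Batf in MK2-/- BMDM gave 8.20, 7.52, 7.18 and 7.49 in medium and 14.63, 14.61, 14.11 and 14.34 under LPS. Batf in MK2/3-/- BMDM gave 7.90, 7.74 and 7.09 in medium and 14.22, 14.17, 13.72 and 13.34 under LPS. No LPS array lay below 13.34 and no medium array above 9.88. The rise was 49.5-fold in wt (log2 5.63 ± 0.39, adjusted p 2.47e-09), 113-fold in MK2-/- (6.82 ± 0.36, 4.89e-11) and 78.1-fold in MK2/3-/- BMDM (6.29 ± 0.39, 3.23e-10). The highest medium value was that of wt replicate 4, one of the 3 doubted arrays, and without these arrays the wt response was 6.11. Leaving out the highest value must lower the wt medium mean, so this change is no independent check. The same holds for the differences from wt in medium. In medium the differences from wt were -0.83 in MK2-/- and -0.86 in MK2/3-/- BMDM (adjusted p 0.15 and 0.266), and -0.21 and -0.37 without the 3 doubted arrays. Under LPS they were 0.36 (-0.45 to 1.17) and -0.20 (-1.01 to 0.61). The LPS response of MK2-/- BMDM exceeded that of wt by 1.19 (0.09 to 2.30, unadjusted p 0.0361, adjusted p 0.652), or by 0.68 without these arrays.

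Maff (NM_010755), a small Maf protein without a transactivation domain that pairs with itself or with NRF2-type factors, rose in all genotypes and started lower in MK2-/- BMDM. Maff in wt BMDM had log2 signals of 8.37, 7.27, 6.89 and 7.57 in medium and 10.03, 10.31 and 10.16 under LPS. Maff in MK2-/- BMDM gave 5.66, 5.33, 6.34 and 6.94 in medium and 11.18, 11.08, 10.87 and 10.43 under LPS. Maff in MK2/3-/- BMDM gave 6.45, 6.64 and 7.20 in medium and 10.71, 10.76, 10.46 and 10.58 under LPS. The LPS and medium arrays did not overlap. The rise was 6.25-fold in wt (log2 2.64 ± 0.35, adjusted p 5.52e-06), 28.3-fold in MK2-/- (4.82 ± 0.32, 5.42e-10) and 14.5-fold in MK2/3-/- BMDM (3.86 ± 0.35, 2.79e-08). In medium Maff was 2.75-fold lower in MK2-/- than in wt BMDM (log2 -1.46 ± 0.32, adjusted p 0.0114), although the highest MK2-/- array (6.94) lay above the lowest wt array (6.89). In MK2/3-/- BMDM the difference from wt in medium was -0.76 (-1.48 to -0.03, adjusted p 0.27). On the medium arrays of both knockouts Maff had the order of the summed fibroblast and stromal markers. In wt medium replicates 1 and 4 were highest in both, and in no LPS group did the order match. The part of these markers in the Maff differences was not tested. Under LPS all arrays of both knockouts lay above all wt arrays, by 0.72 in MK2-/- and 0.46 in MK2/3-/- BMDM (adjusted p 0.171 and 0.356). Its LPS response was larger in MK2-/- than in wt by 2.18 (1.19 to 3.17, unadjusted p 0.000194), the largest such difference of the 10 members, with an adjusted p of 0.194. With array weights in the model this was 2.06 and passed the threshold (adjusted p 0.0407). That was 1 of 35 alternatives, over which the difference ranged from 1.61 to 2.47, and in the other 34 it did not pass.

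**Figure D4:**
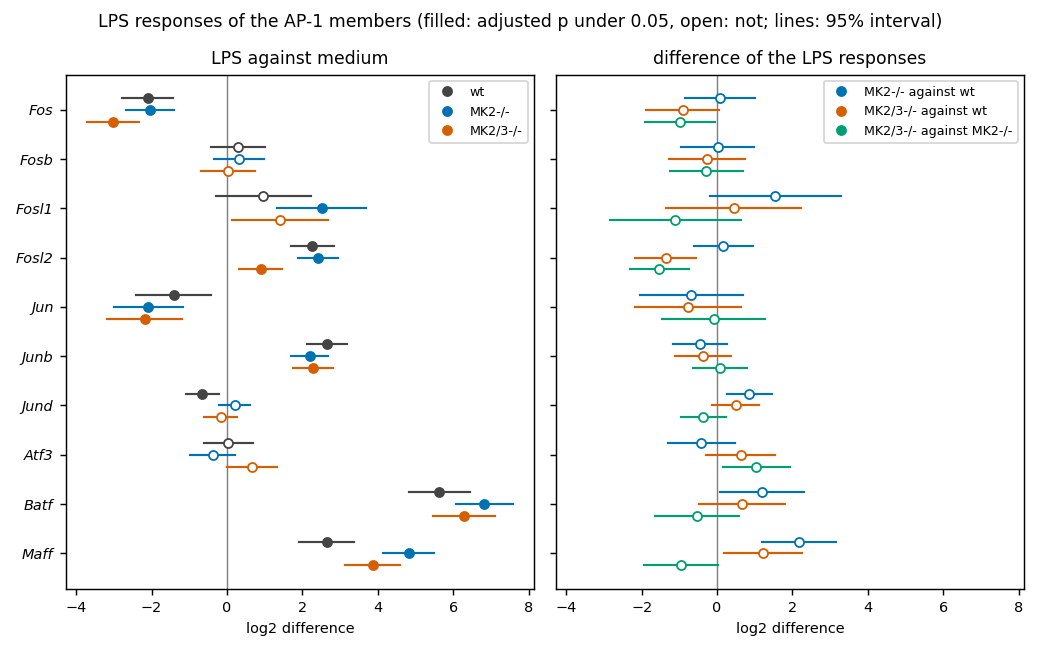
Left, log2 difference between LPS and medium for each member in wt, MK2-/- and MK2/3-/- BMDM, and right, the difference of these responses between genotypes, with 95% intervals as lines. Filled points passed a limma adjusted p of 0.05 and open points did not, and all points on the right are open, with Maff in MK2-/- against wt furthest from 0 (2.18).

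The genotypes were compared under LPS and in medium to see which members differed with loss of the kinases. Under LPS, Jund was the 1 member called higher in MK2-/- than in wt BMDM, against 4.52% of all genes, and none was lower (7.06%), while scaling to the 75th percentile added Fosb as higher (0.98, adjusted p 0.0473). In MK2/3-/- against wt BMDM, Jund and Atf3 were higher (9.61% of all genes) and Fosl2 was lower (14.0%), a split that became 1 higher and 2 lower with scaling to the 75th percentile, where Atf3 fell below the threshold (0.79, adjusted p 0.0752) and Fos was called lower (-0.95, adjusted p 0.0229). Between MK2/3-/- and MK2-/- BMDM, Atf3 was higher (7.74% of all genes) and Fosl2 and Fosb were lower (5.80%), which became 1 higher and 1 lower with that scaling and 0 higher and 1 lower, Fosl2, without the 3 doubted arrays. These Fosl2 calls rest on the brighter probe, and the dimmer one was not called for MK2/3-/- against wt or against MK2-/- (limma adjusted p 0.0974 and 0.809). In medium, Fosl1 and Maff were lower in MK2-/- than in wt (3.11% of all genes), joined by a call of Fosb as higher (1.12, adjusted p 0.0156) with that scaling. Without the 3 doubted arrays 1 of these, Maff, was called. No member was called between MK2/3-/- and wt in medium (2.02% of all genes in either direction, 3 members at an unadjusted p below 0.05) or between MK2/3-/- and MK2-/- in medium (2.82%, 0 members at an unadjusted p below 0.05). Comparisons of one treatment share arrays, so that their calls are not independent of each other.

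**Figure D5:**
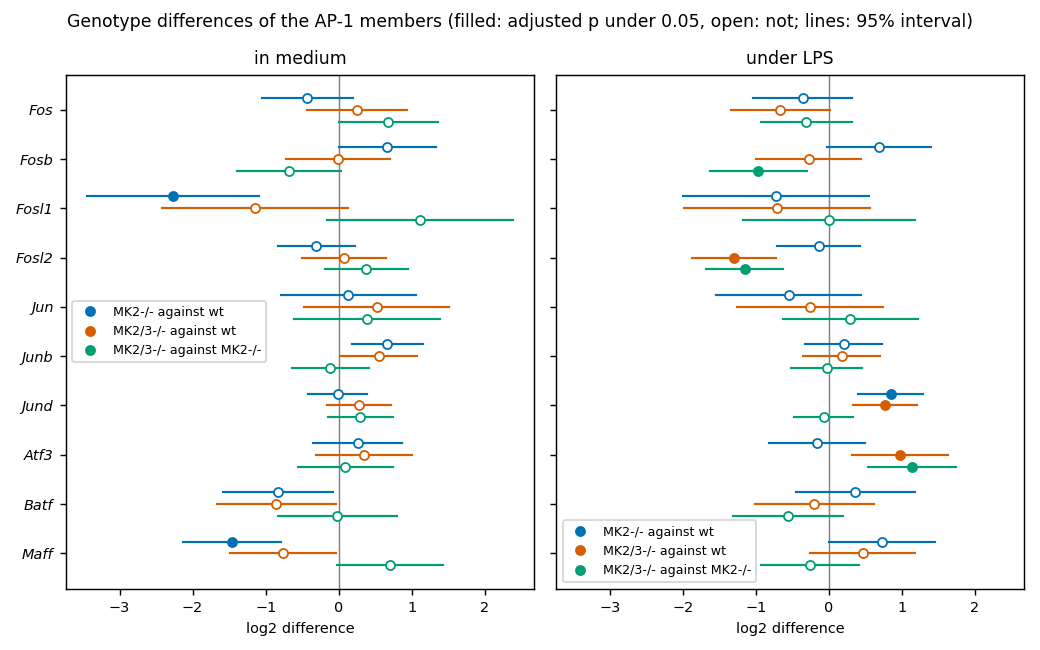
Log2 difference of each member between genotypes, in medium (left) and under LPS (right), with 95% intervals as lines and filled points for a limma adjusted p below 0.05. In medium the filled points are Fosl1 (-2.26) and Maff (-1.46) for MK2-/- against wt, and under LPS they are Fosl2, Jund, Atf3 and Fosb.

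No member's LPS response was called as different between genotypes by limma. For MK2-/- against wt this held for 0 of 22384 genes (0%), with 1685 genes and 3 members (Jund, Batf, Maff) at an unadjusted p below 0.05. For MK2/3-/- against wt it was 152 genes (0.679%), with 2 members at an unadjusted p below 0.05, Fosl2 and Maff. For MK2/3-/- against MK2-/- it was 15 genes (0.0670%), with Fos, Fosl2 and Atf3 at an unadjusted p below 0.05.

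Other basic leucine zipper genes were examined beside the members. Of 22 relatives 21 were tested, and under LPS 7 rose and 3 fell in wt, 11 rose and 4 fell in MK2-/-, and 9 rose and 6 fell in MK2/3-/- BMDM, with medians of 0.45, 0.56 and 0.47. Over all genes the shares that rose and fell were 18.6% and 23.5% in wt, 17.5% and 27.1% in MK2-/-, and 20.2% and 27.9% in MK2/3-/- BMDM. In wt the changes included a rise of 4.87 on the log2 scale for Batf2 (adjusted p 1.10e-09) and of 4.33 for Jdp2, a partner and repressor of Jun (3.97e-08), and a fall of Bach2 (-4.49, 7.00e-08). Between LPS-treated genotypes, 1 relative was higher and 0 lower in MK2-/- than in wt BMDM (4.52% and 7.06% of all genes). In MK2/3-/- BMDM 2 were higher and 3 lower than in wt (9.61% and 14.0%), and 2 and 1 against MK2-/- (7.74% and 5.80%). Those named here for the largest differences were all higher. Mafg, a small Maf like Maff, exceeded wt in MK2-/- BMDM by 1.23 (adjusted p 0.0482; 1.36, adjusted p 0.066, without the 3 doubted arrays). Batf3 exceeded wt in MK2/3-/- BMDM by 1.43 (0.00362), and Crem, a CRE-binding factor, was higher in MK2/3-/- than in MK2-/- BMDM (1.32, 0.000507).

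All 27 listed kinases and factors upstream of AP-1 were tested. In wt BMDM 7 rose and 10 fell under LPS, in MK2-/- 7 and 9, and in MK2/3-/- 9 and 12, with medians of -0.18, -0.12 and -0.36. Over all genes 18.6% rose and 23.5% fell in wt, 17.5% and 27.1% in MK2-/-, and 20.2% and 27.9% in MK2/3-/- BMDM. Map3k8, the kinase TPL2 that activates the ERK pathway, rose by 3.72 in wt (adjusted p 1.06e-09). Rps6ka1, an ERK-activated kinase, Mapk14, which encodes p38 alpha, and Map3k1, a kinase upstream of JNK, fell by 3.58, 2.82 and 2.59 (highest adjusted p 1.16e-05). Under LPS 4 of the 27 were lower in MK2/3-/- than in wt BMDM, a share near the 14.0% of all genes, and none was higher. They were Mapk14 (-2.19, adjusted p 0.000262), Map2k6, a p38 activator (-1.62, 0.00929), Map2k7, a JNK activator (-0.97, 0.00116), and Map3k8 (-0.71, 0.0386). Without the 3 doubted arrays Map3k8 was not called (-0.71, adjusted p 0.0582), and 3 of the 27 were lower. In MK2-/- against wt BMDM under LPS, 0 of the 27 were called by limma, against 4.52% of all genes as higher and 7.06% as lower. In MK2/3-/- against MK2-/- BMDM under LPS, 0 were higher and 3 lower (7.74% and 5.80% of all genes), and 4 were lower without the 3 doubted arrays.

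Of 24 textbook AP-1 target genes, all tested, 16 rose and 2 fell under LPS in wt, 17 and 2 in MK2-/-, and 15 and 3 in MK2/3-/- BMDM, with medians of 2.59, 2.74 and 2.92. The shares of all genes that rose and fell were 18.6% and 23.5% in wt, 17.5% and 27.1% in MK2-/-, and 20.2% and 27.9% in MK2/3-/- BMDM. The cytokine Il6, the chemokine Ccl2, the prostaglandin synthase Ptgs2 and the cytokine Il1b rose most in wt, by 8.11, 7.65, 7.13 and 6.75 on the log2 scale (highest adjusted p 1.35e-06). In medium 4 of the 24 were lower in MK2-/- than in wt BMDM, against 3.11% of all genes, and none was higher. These were Il6 (-3.90, adjusted p 0.0123), Ptgs2 (-3.12, 0.0125), Ccl2 (-2.22, 0.00609) and Mmp14, a membrane-bound matrix protease (-0.96, 0.0417). Without the 3 doubted arrays, one of which was chosen partly for its high target levels in wt medium, 2 of the 4 were called, Il6 (-2.87, 0.0226) and Ccl2 (-1.73, 0.0465). Under LPS, 1 target was lower in MK2-/- than in wt BMDM, the urokinase gene Plau (-2.76, adjusted p 0.00774), against 7.06% of all genes. In MK2/3-/- against wt, 1 of the 24 was lower, Vegfa (-1.51, 0.0378), against 14.0% of all genes. None was higher in either comparison. In MK2/3-/- against MK2-/- BMDM under LPS, 1 of the 24 was higher and 0 lower (7.74% and 5.80% of all genes), and 0 were called without the 3 doubted arrays.

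Across the 22 arrays, the 4 members that rose under LPS in all genotypes and the 2 that fell ran opposite courses. The correlations of Fos with Fosb, Jund and Atf3 were -0.14, 0.13 and -0.19. Batf correlated with Maff at r = 0.95, Junb with Batf at 0.94 and Fos with Jun at 0.88, while Fos and Batf had r = -0.91. After the group means were removed, the same pairs gave -0.09, 0.30, 0.49 and 0.17. The arrays share group and treatment, and these values describe them without a test. The tested gene most like each member over the 22 arrays was Isg20 for Batf (r = 0.995), Vcam1 for Maff (0.989), Slfn2 for Junb (0.986), Cebpb for Fosl2 (0.970), Cd300c2 for Fos (0.962), Myh14 for Fosb (0.950), Tbkbp1 for Jun (0.934), Rcn1 for Fosl1 (0.892), Mbtd1 for Jund (0.788) and Gnpda1 for Atf3 (0.768).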

How the data were processed

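Each Cy3-labelled RNA was hybridised to a separate Agilent array by the authors. The deposited scanner output gives processed spot intensities, background-subtracted and detrended by Feature Extraction 11.0.1.1 but with no scaling across arrays. A second deposited file holds log2 values that the methods call quantile normalised and set to each probe's median. Its columns followed the values computed here with r between 0.992 and 0.999, and it served as an alternative.

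Control spots were left out, spots marked as non-uniform or population outliers were set to missing (115 to 2927 per array, with 2927 on LPS replicate 3 of MK2-/-), and log2 processed signals were quantile normalised over 22 arrays and averaged per probe. Of 55681 probes, 28103 had an NCBI accession and passed a filter of at least 3 arrays well above background. Symbols came from RefSeq (GRCm38.p6), and the probe with the highest mean stood for its gene (22384 genes, 18375 with a symbol). The array design is annotated on mm9, so no probe coordinates are given.

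Differences were tested with limma 3.58.1 (lmFit, eBayes) in R 4.3.3, with 6 group means and no block. P-values are two-sided and adjusted by Benjamini-Hochberg over all genes. The scripts were tested on simulated data. The number of arrays limits the precision.

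All members are named. From the lists of relatives, upstream kinases and targets, up to 4 called genes with the largest wt LPS response and up to 3 with the largest differences between LPS-treated genotypes are named. The targets lower in MK2-/- BMDM in medium and the fourth kinase lower in MK2/3-/- BMDM under LPS were named after their values were seen. A gene that this rule selects is not reported here. The members and lists were chosen with earlier results of these data known. No source used here states whether LPS and medium arrays of a genotype were paired. Deviations correlated above 0.1 in 7 of 10 same-numbered pairs. For arrays with the same letter in the array name this was 7 of 10, against 6 of 30 of unlike letter. Same-lettered LPS and medium arrays of a genotype also share an age, and both MK2-/- arrays without Y-linked signal carry the letter c. The main fit treats all arrays as independent. Alternatives covered scaling, background, filter, probe choice (which left the probe of every member unchanged), table, test, array weights, block and leaving out arrays. Leaving out 3 doubted arrays together was chosen after seeing the data.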

Additional observations from a re-analysis of the deposited data

Results flagged for a closer look

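Batf in wt BMDM in medium had a log2 signal of 9.88 on replicate 4, compared with 7.86 to 8.09 on the other 3 arrays, so that the gap to its neighbour took up most of the range of the group. It was the 1 value of this kind among 40 groups of 4 arrays examined for the members, and such a gap can arise by chance when so many groups are examined. The same array had the highest median of the textbook AP-1 target genes among the medium arrays (12.08, the next being 11.25), and its part in the Batf value was not tested.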

How the results depend on the processing

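Of 29 called differences of the members, none changed sign in any of 36 alternatives and 18 kept their call in all, while 31 of 91 differences that were not called changed sign in at least 1 (the largest of these was 0.44 in absolute log2). No alternative put another probe in place of a member's main probe, so the dimmer Fosl2 probe does not enter these counts. Fosl2 in MK2/3-/- against MK2-/- under LPS kept its call in all, but was -0.11 (limma adjusted p 0.809) on the dimmer probe. The LPS response of Jund in MK2/3-/- BMDM turned from -0.17 to 0.59 (called) with scaling to the 75th percentile, and the cause was not tested. Members called in MK2-/- against wt under LPS numbered 1, but 2 with that scaling and 0 with only the compared groups in the fit or with the methods' t-test once its p-values were adjusted by Benjamini-Hochberg, and 0 to 1 when each array was left out. For MK2/3-/- against wt under LPS, 3 became 0 with that t-test. For MK2/3-/- against MK2-/- under LPS, 3 became 1 with only the compared groups, with the t-test and without the 3 doubted arrays. For MK2-/- against wt in medium, 2 became 1, Maff, with normexp background and without the doubted arrays. It also became 1 with only the compared groups and with the t-test, but there both reported calls, Fosl1 and Maff, were lost and the 1 call was Fosb as higher. It was 1 to 2 when each array was left out. For the LPS response of MK2-/- against wt, 0 became 1 with array weights (Maff). At its own unadjusted threshold the methods' t-test counted 6, 7 and 8 members in the LPS responses of wt, MK2-/- and MK2/3-/- BMDM, 3, 4 and 2 under LPS for MK2-/- against wt, MK2/3-/- against wt and MK2/3-/- against MK2-/-, and 4, 0 and 1 for the same comparisons in medium. It could not be applied to differences of responses. With the replicate number as a replicate block, Fosb in MK2/3-/- against MK2-/- under LPS was -0.97 with an adjusted p of 0.0525 and no other call changed. Some same-numbered LPS and medium arrays of wt and MK2/3-/- BMDM differ in letter and age, so this block does not stand for a pairing of arrays. With the array letter as a random replicate block, Fosl1 was called in MK2/3-/- BMDM under LPS (1.39, adjusted p 0.043). Other causes were not tested. All members were well above background on at least 21 arrays, but normexp correction moved Fosl1 in MK2-/- against wt in medium from -2.26 to -1.15 (adjusted p 0.0761).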
